A study of Mus musculus with 20 samples.

Results

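The machinery that releases synaptic vesicles was described over 41 genes, chosen by symbol as the SNAREs, synaptotagmins, synapsins, complexins and active zone genes with their close partners. All 41 were listed in both deposited count tables, among the 17148 genes that the tables share, and all 41 passed the filter on low counts in every comparison. Total RNA of hippocampus and frontal cortex was sequenced from Ncs1-/- and Ncs1+/+ mice of C57Bl6/J background, in 20 libraries. The groups were Ncs1-/- hippocampus, Ncs1+/+ hippocampus, Ncs1-/- frontal cortex and Ncs1+/+ frontal cortex, with 5 libraries each. No treatment, age or sex is given in the sources used here, and neither is the way the Ncs1 allele was made. The labels do not tie the 5 libraries of a group to 5 separate mice, so each p-value reflects variation among libraries, some or all of which may be technical.

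Transmitter is released when a vesicle docks at the active zone, is primed, and fuses with the presynaptic membrane as calcium enters. Fusion is driven by the SNAREs, Vamp on the vesicle and Stx1a and Snap25 on the plasma membrane, which zip into 1 complex. Calcium-binding synaptotagmins and Doc2 proteins sense calcium through C2 domains. Complexins hold and then help the SNARE complex, and Nsf with its adaptors takes used complexes apart. Rim, Munc13, Bassoon and Piccolo form the active zone, and synapsins tether vesicles in reserve. Ncs1 encodes neuronal calcium sensor 1, whose fly ortholog, frequenin, is known for its effect on transmitter release.

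The targeted gene was checked first. Ncs1 lay between 279 and 329 CPM (counts scaled to library size, with TMM factors) in Ncs1-/- hippocampus, against 427 to 471 CPM in Ncs1+/+ hippocampus. In cortex it lay between 255 and 265 CPM in Ncs1-/- libraries, against 351 to 387 CPM in Ncs1+/+ libraries. The groups did not overlap, and a good part of the transcript remained in the mutants. Depth was 16609603 to 34612610 counts per library, of which the 41 genes took 2.03% to 2.37%. Hippocampus WT replicate 1 (a Ncs1+/+ library) stood apart in markers of both regions. Its cortical marker Lamp5 was at 56.3 CPM, against 30.2 to 34.7 CPM in the other 4 libraries of its group and 137 to 214 CPM in Ncs1+/+ cortex. Its dentate granule cell marker Prox1 was at 87.7 CPM, against 129 to 176 CPM in those 4. The choroid plexus gene Ttr reached 3119 CPM in hippocampus, with its highest levels in Ncs1-/- replicates 2 and 4 and Ncs1+/+ replicate 4, and the lowest hippocampus library held 2.96 CPM. In cortex, Ncs1-/- replicate 1 held 207 CPM of Ttr, against 0.105 to 1.76 CPM in the other 4 libraries of its group. Hippocampus libraries carry one sequencing lane in the labels and cortex libraries another, so region and lane cannot be told apart.

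Most vesicle release genes differed between hippocampus and cortex, and most of these were lower in hippocampus. In Ncs1-/- mice 33 of the 41 genes were called, 6 higher and 27 lower in hippocampus. In Ncs1+/+ mice 33 were called as well, again 6 higher and 27 lower. A call is an adjusted p under 0.05 by edgeR's quasi-likelihood test with Benjamini-Hochberg adjustment over all tested genes. Among all 15032 genes tested in Ncs1-/- mice 38.8% were called, 19.2% higher and 19.6% lower. Of the 14849 genes tested in Ncs1+/+ mice 39.5% were called, 18.8% higher and 20.7% lower. The median log2 fold change of the 41 genes, hippocampus over cortex, was -0.22 in Ncs1-/- mice and -0.26 in Ncs1+/+ mice, where the medians of all tested genes were 0.013 and 0.0071.

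Both genotypes gave nearly the same list. The same 31 genes were called in both, 25 lower and 6 higher, with 0 called in opposite directions. The sign was shared by 41 of 41 genes, and the log2 fold changes of the genotypes differed by a median of 0.050. The region comparisons of the 2 genotypes share no library, although they share the lane split. Rab3b and Pclo were called lower in Ncs1-/- mice alone, and Napb and Sv2b in Ncs1+/+ mice alone. Whether these 4 differ between genotypes is a matter of the interaction test given further on, where none passed. Syt7, Syt11, Vamp2, Napa, Syngr3 and Rab3a were called in neither genotype. The 5 hippocampus libraries did not overlap the 5 cortex libraries for 25 of the 41 genes in Ncs1-/- mice and for 24 in Ncs1+/+ mice, where 29.8% and 29.5% of all tested genes did not overlap. The 3 hippocampus libraries that held the most Ttr, Ncs1-/- replicates 2 and 4 and Ncs1+/+ replicate 4, were also left out of their comparisons. In Ncs1-/- mice 28 of the 41 were then called, and Pclo, Sv2a, Syn1, Syt5 and Unc13b lost the call. In Ncs1+/+ mice, in a fit that left out replicate 4 alone, 35 were called, and Pclo and Syngr3 gained the call. Over all genes, 4722 were called in place of 5838 in Ncs1-/- mice and 5530 in place of 5861 in Ncs1+/+ mice. The count over all genes thus fell in both genotypes, whereas the count among the 41 rose in Ncs1+/+ mice. In tissue RNA, fewer cells of a type and less RNA per cell cannot be told apart.

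**Figure D1:**
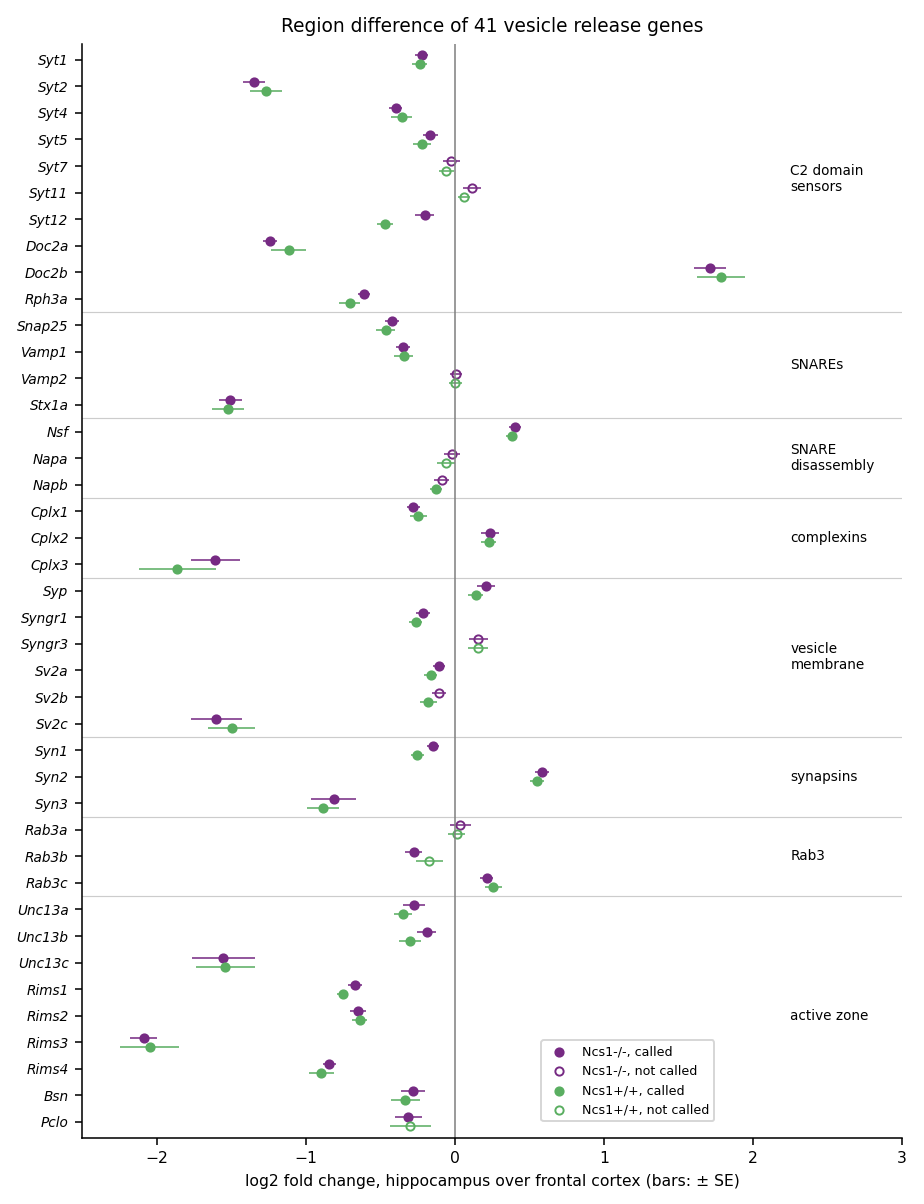
Log2 fold change of hippocampus over frontal cortex (x axis) for the 41 genes, by role (rows), with bars of ± SE; purple is Ncs1-/-, green Ncs1+/+, and filled points were called by edgeR. Points of both genotypes lie close together for each gene, from -2.09 for Rims3 to 1.78 for Doc2b, and all 9 active zone genes lie left of 0.

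Several lists of cell type markers differed between the regions too, to be read against the 38.8% and 39.5% of all genes called there. All 14 markers of striatal projection neurons were called lower in hippocampus in each genotype. Their summed level was 211 to 268 CPM in Ncs1-/- hippocampus against 1196 to 2070 CPM in Ncs1-/- cortex, and 215 to 249 CPM in Ncs1+/+ hippocampus against 1137 to 1797 CPM in Ncs1+/+ cortex. Of 18 interneuron markers, 2 were higher and 11 lower in hippocampus in Ncs1-/- mice, and 2 were higher and 12 lower in Ncs1+/+ mice. Dentate granule cell markers were higher for 7 of 10 and lower for 1 in each genotype, and cortical layer markers, Cplx3 among them, were lower for 10 of 14 and higher for 4. Markers of CA field pyramidal neurons were higher for 9 of 10 in Ncs1-/- mice and 8 of 10 in Ncs1+/+ mice, and lower for 0. Of 10 glutamatergic neuron markers 5 were higher and 3 lower in each genotype. Their summed level was 7492 to 8674 CPM in Ncs1-/- hippocampus against 6407 to 7030.5 CPM in Ncs1-/- cortex, and 7792 to 9584 CPM in Ncs1+/+ hippocampus against 6799 to 7880.4 CPM in Ncs1+/+ cortex. Within that list, the vesicular glutamate transporter gene Slc17a7 averaged 1340.1 ± 119 CPM in Ncs1-/- hippocampus and 1212 ± 77.1 CPM in Ncs1-/- cortex (SD, n = 5 each). It was at 1443 ± 99.0 CPM in Ncs1+/+ hippocampus and 1341 ± 82.6 CPM in Ncs1+/+ cortex, and was called in neither genotype. Oligodendrocyte markers were higher in hippocampus for 4 of 12 in each genotype and lower for 0, a share below that of all genes. Of 12 microglia markers 0 were called in Ncs1-/- mice, and 1 was lower in Ncs1+/+ mice. Endothelial markers were lower for 3 of 10 in Ncs1-/- mice and 4 of 10 in Ncs1+/+ mice, and higher for 0. Astrocyte markers were higher for 5 of 14 and lower for 3 in each genotype. Choroid plexus markers were higher for 3 of 9 tested in Ncs1-/- mice and 3 of 6 in Ncs1+/+ mice. No marker of these lists was at 0 in all 5 libraries of a group. The part of these mixtures in the vesicle gene differences was not tested.

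Promoters are shown for 4 genes, a pair far lower in hippocampus (Rims3 and Stx1a) and the synapsin pair that went opposite ways (Syn1 lower, Syn2 higher). Each is 300 bases of RefSeq sequence on GRCm38.p6 around the gene's start, most of them before it, written 5′ to 3′ on the gene's own strand. Capitals mark matches, on either strand, to GGGCGG (the GC box bound by Sp1), to TGACGTCA (the cAMP response element) and to TTCAGCACC, the left part of the RE1 site that the neuronal repressor Rest binds.
Rims3, chr4:120854549-120854848, plus strand: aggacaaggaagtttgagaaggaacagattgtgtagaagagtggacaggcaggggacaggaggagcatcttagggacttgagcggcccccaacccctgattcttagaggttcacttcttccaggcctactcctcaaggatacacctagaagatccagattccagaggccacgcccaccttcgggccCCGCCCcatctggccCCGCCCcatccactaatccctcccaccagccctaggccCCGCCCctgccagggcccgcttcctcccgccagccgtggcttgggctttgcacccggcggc
Stx1a, chr5:135023232-135023531, plus strand: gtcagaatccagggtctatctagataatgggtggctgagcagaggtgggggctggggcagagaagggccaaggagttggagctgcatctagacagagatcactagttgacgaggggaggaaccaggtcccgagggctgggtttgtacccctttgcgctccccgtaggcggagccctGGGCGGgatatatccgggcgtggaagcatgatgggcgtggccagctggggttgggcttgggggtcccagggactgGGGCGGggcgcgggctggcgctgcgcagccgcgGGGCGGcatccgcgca
Syn1, chrX:20920869-20921168, minus strand: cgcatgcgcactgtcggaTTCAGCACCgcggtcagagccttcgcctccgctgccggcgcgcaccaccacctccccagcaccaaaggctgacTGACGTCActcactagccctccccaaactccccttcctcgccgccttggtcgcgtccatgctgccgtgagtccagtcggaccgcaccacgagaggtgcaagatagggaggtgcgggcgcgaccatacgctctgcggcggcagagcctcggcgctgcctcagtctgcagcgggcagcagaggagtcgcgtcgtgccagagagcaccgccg
Syn2, chr6:115134652-115134951, plus strand: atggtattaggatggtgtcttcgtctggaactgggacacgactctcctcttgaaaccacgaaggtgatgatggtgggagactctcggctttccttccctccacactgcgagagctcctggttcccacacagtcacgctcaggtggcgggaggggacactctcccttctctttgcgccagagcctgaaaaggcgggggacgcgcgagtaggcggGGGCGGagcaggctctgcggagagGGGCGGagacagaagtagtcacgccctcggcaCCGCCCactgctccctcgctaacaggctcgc
Rims3, Stx1a and Syn2 each hold 3 GC boxes and neither of the other motifs, whereas Syn1 holds the RE1 part and a cAMP response element but no GC box. The table gave 38 promoters for 29 of the 41 genes. GGGCGG was found in 24 of these 38 (63.2%), against 35.7% of all 32851 promoters in the table. TTCAGCACC was found in 2 of 38, those of Syn1 and Unc13a, against 0.371% of all, and TGACGTCA in 2 of 38, those of Syn1 and Napa, against 1.79%. The right part of the RE1 site, GGACAGC, was found in 3 of 38 (7.89%), against 6.56% of all, and TATAAA, the TATA box, also in 3 of 38, against 13.6%. Neither occurs in the 4 promoters shown. Median G and C content of the 38 promoters was 61.7%, against 52.7% for all promoters. Matching letters describe the sequence and do not show a bound site, and a gene higher in hippocampus and 2 genes lower there share the GC box.

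The 9 active zone genes of the set were lower in hippocampus throughout. All 9 were called in Ncs1-/- mice and 8 of 9 in Ncs1+/+ mice, with median log2 fold changes of -0.65 and -0.64. Active zone genes outside the set went both ways. Of 24 tested, 9 were called higher and 6 lower in Ncs1-/- mice, and 9 higher and 8 lower in Ncs1+/+ mice. Rims3 differed most of the 41 genes. It encodes a short Rim (Rim3 gamma) that keeps the last C2 domain of the family. The deposited tables place it on chromosome 4 (mm10, 120854799 to 120896576). Rims3 had 62.2, 64.3, 64.8, 52.2 and 80.3 CPM in the Ncs1-/- hippocampus libraries, against 285, 273, 283, 248 and 284 CPM in Ncs1-/- cortex. In Ncs1+/+ mice its levels were 123, 64.1, 52.3, 53.7 and 68.5 CPM in hippocampus and 314, 294, 317, 291 and 262 CPM in cortex. Every hippocampus library lay far below every cortex library, and the single high hippocampus value is that of Ncs1+/+ replicate 1. The log2 fold change was -2.09 (SE 0.093, edgeR adjusted p = 1.42e-09) in Ncs1-/- mice, a 4.25-fold lower level in hippocampus, and -2.05 (SE 0.20, adjusted p = 3.22e-06) in Ncs1+/+ mice. Without hippocampus WT replicate 1 the Ncs1+/+ value was -2.32 (SE 0.091).

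Rims4, the other short Rim, had 75.5, 76.1, 77.2, 72.2 and 78.7 CPM in Ncs1-/- hippocampus and 139.7, 136, 134, 129 and 139.5 CPM in Ncs1-/- cortex. In Ncs1+/+ mice it had 103, 82.8, 70.8, 74.0 and 86.1 CPM in hippocampus and 152, 148, 161, 155 and 152 CPM in cortex. The regions did not overlap, and its log2 fold changes were -0.84 (SE 0.040) and -0.90 (SE 0.085), with edgeR adjusted p-values of 3e-09 and 2.54e-06. The long Rims, Rims1 and Rims2, which bind Rab3, Munc13 and calcium channels, were lower by a smaller amount. Rims1 averaged 212 ± 10.7 CPM in Ncs1-/- hippocampus and 336 ± 14.7 CPM in Ncs1-/- cortex (SD, n = 5 each). Its log2 fold change was -0.67, and -0.75 in Ncs1+/+ mice. Rims2 gave -0.65 in Ncs1-/- mice and -0.64 in Ncs1+/+ mice.

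The 3 Munc13 genes, which prime vesicles by opening syntaxin, were unequal. Unc13c, the form best known from cerebellum, had 19.3, 34.5, 29.2, 20.3 and 50.6 CPM in Ncs1-/- hippocampus and 95.1, 83.3, 85.4, 98.1 and 89.3 CPM in Ncs1-/- cortex. The Ncs1+/+ libraries had 30.7, 30.0, 18.2, 18.3 and 35.8 CPM in hippocampus and 74.6, 77.7, 54.4, 101 and 75.1 CPM in cortex. Hippocampus libraries spread widely, over more than a doubling in Ncs1-/- mice, yet stayed below cortex in both genotypes. The log2 fold changes were -1.55 (SE 0.21, edgeR adjusted p = 5.92e-05) and -1.54 (SE 0.20, adjusted p = 4.25e-05). Unc13a, the main Munc13 of forebrain synapses, was at -0.27 in Ncs1-/- mice and -0.35 in Ncs1+/+ mice, and Unc13b was at -0.19 and -0.30. The giant scaffolds were lower as well, Bsn by 0.28 and 0.33 on the log2 scale in Ncs1-/- and Ncs1+/+ mice. Pclo gave -0.31 (SE 0.090, edgeR adjusted p = 0.0146) in Ncs1-/- mice and -0.30 (SE 0.14, adjusted p = 0.103) in Ncs1+/+ mice, where it missed the threshold. It passed in Ncs1+/+ mice without hippocampus replicate 4, at -0.38 (adjusted p = 0.0485). The Unc13b call in Ncs1-/- mice was lost in 6 of 10 fits with 1 library left out, those without cortex replicates 2, 3 or 5 or hippocampus replicates 2, 4 or 5, at adjusted p-values of 0.0559 to 0.0846. Reads of Bsn cannot be told apart from those of a gene annotated on the other strand where they overlap, since no source used here says whether counting used strand.

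**Figure D2:**
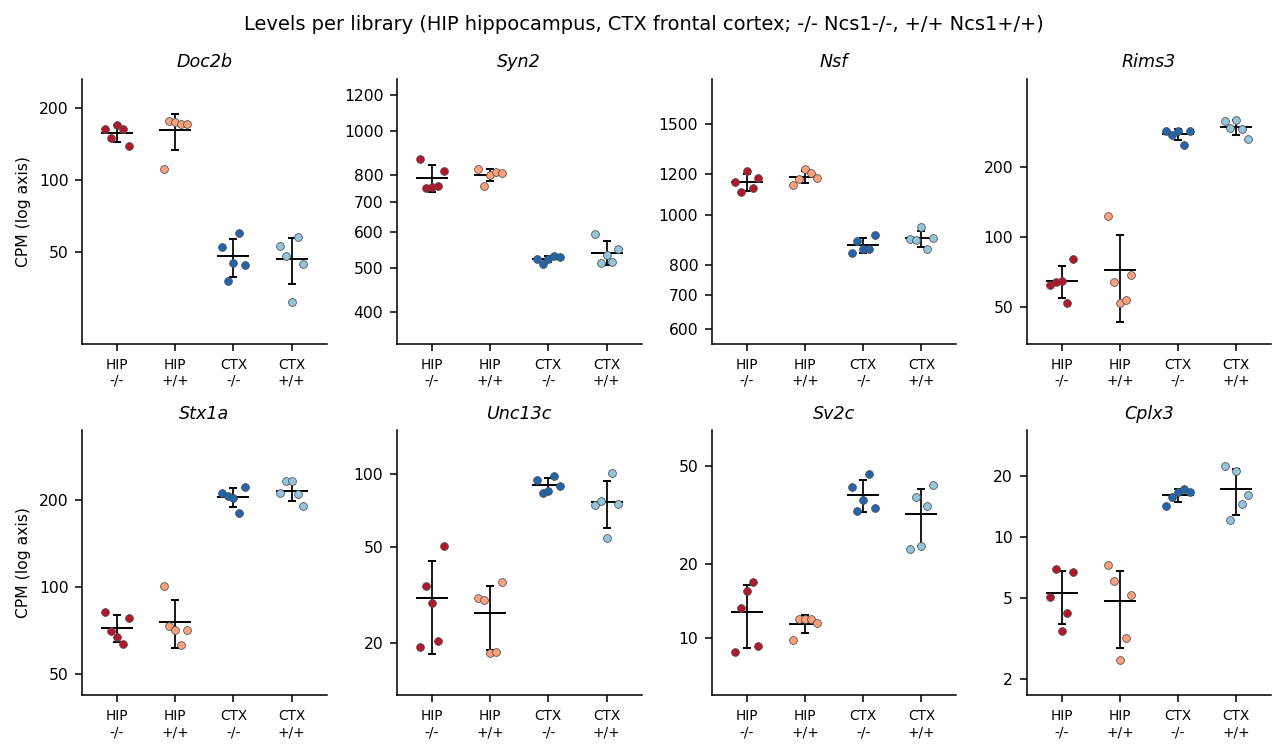
CPM (log y axis) of 8 genes in each library; points are libraries, dashes the group mean and bars the SD (n = 5), with hippocampus (HIP) left of frontal cortex (CTX) and Ncs1-/- left of Ncs1+/+. Doc2b, Syn2 and Nsf are higher in every hippocampus library, and Rims3, Stx1a, Unc13c, Sv2c and Cplx3 are lower; hippocampus WT replicate 1 is the low Doc2b and the high Rims3 and Stx1a point of its group.

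Among the synaptotagmins and other C2 domain genes 1 was higher and 7 of 10 were lower in hippocampus, in each genotype. Doc2b was the one higher, and it had the largest rise of the 41 genes. It encodes a soluble, high-affinity calcium sensor linked to spontaneous and asynchronous release. Doc2b had 163, 149.7, 171, 164 and 139 CPM in Ncs1-/- hippocampus, against 52.5, 37.4, 44.7, 60.1 and 44.0 CPM in Ncs1-/- cortex. Its Ncs1+/+ levels were 112, 177, 176, 172 and 172 CPM in hippocampus and 52.8, 47.9, 30.7, 57.4 and 44.2 CPM in cortex. All hippocampus libraries were well above all cortex libraries, the lowest being Ncs1+/+ replicate 1. The log2 fold change was 1.71 (SE 0.11, edgeR adjusted p = 3.49e-08) in Ncs1-/- mice and 1.78 (SE 0.16, adjusted p = 1.61e-06) in Ncs1+/+ mice, and 1.89 (SE 0.13) in Ncs1+/+ mice without hippocampus replicate 1.

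Its paralog Doc2a went the other way. Doc2a had 14.7, 14.3, 14.6, 14.8 and 14.7 CPM in Ncs1-/- hippocampus and 35.7, 35.4, 34.2, 33.5 and 33.5 CPM in Ncs1-/- cortex. In Ncs1+/+ mice it had 21.4, 16.1, 12.3, 14.2 and 15.5 CPM in hippocampus and 33.6, 31.8, 36.5, 35.4 and 32.5 CPM in cortex. The 5 Ncs1-/- hippocampus values were nearly identical, and no hippocampus library reached the cortex range. The log2 fold changes were -1.24 (SE 0.050) and -1.11 (SE 0.12), with edgeR adjusted p-values of 5.97e-10 and 6.91e-06. Doc2a overlaps Ino80e, and Doc2b overlaps Gm12339, on the opposite strand.

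Syt2, a fast sensor best known from hindbrain and some interneurons, had 35.7, 40.1, 48.4, 39.2 and 43.4 CPM in Ncs1-/- hippocampus and 99.5, 111, 105, 99.9 and 108 CPM in Ncs1-/- cortex. Ncs1+/+ mice had Syt2 at 55.4, 33.0, 42.2, 39.6 and 43.4 CPM in hippocampus and 101, 90.4, 106, 109 and 101 CPM in cortex. The regions were well separated, with log2 fold changes of -1.35 (SE 0.072) and -1.27 (SE 0.11) and edgeR adjusted p-values of 8.75e-09 and 9.57e-07. The interneuron marker Pvalb averaged 18.9 ± 2.83 CPM in Ncs1-/- hippocampus and 30.1 ± 1.26 CPM in Ncs1-/- cortex (SD, n = 5 each). It was called lower, at -0.68 on the log2 scale. In Ncs1+/+ mice it was also called lower, at -0.63, although the regions overlapped. Of the 18 interneuron markers 2 were called higher in each genotype, and 11 and 12 lower. Sst, another of them, gave 0.096 and 0.082 and was called in neither. The part of interneurons in the Syt2 difference was not tested. Syt1, the main fast sensor of forebrain synapses, differed less, at 2003 ± 116 CPM in Ncs1-/- hippocampus and 2329 ± 109 CPM in Ncs1-/- cortex, log2 -0.22. It gave -0.24 in Ncs1+/+ mice. Gm5136 lies within Syt1 on the same strand.

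Rph3a, the Rab3 effector rabphilin, was lower by 0.61 in Ncs1-/- mice and 0.71 in Ncs1+/+ mice on the log2 scale. Syt4, of the kind that binds calcium poorly and sits on dense-core vesicles, was at -0.40 and -0.36. Syt12, which lacks calcium binding, was at -0.20 (SE 0.067) in Ncs1-/- mice and -0.47 (SE 0.056) in Ncs1+/+ mice. Syt5 was at -0.16 and -0.22. In Ncs1-/- mice the Syt12 and Syt5 calls were thin. Syt12 missed the threshold without cortex replicate 1, 3 or 5 or hippocampus replicate 3 or 5 (adjusted p 0.0521 to 0.0745). Syt5 missed it without cortex replicate 1, 2 or 5 or hippocampus replicate 4 (0.0518 to 0.0644). Syt7, the sensor of facilitation and asynchronous release, gave -0.024 (SE 0.055) in Ncs1-/- mice and -0.059 (SE 0.050) in Ncs1+/+ mice, and Syt11 gave 0.11 (SE 0.060) and 0.062 (SE 0.041), neither called.

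Of the 4 SNAREs, 3 were lower in hippocampus and Vamp2 was not called. Stx1a, a syntaxin of the presynaptic plasma membrane, had 82.2, 70.5, 67.4, 63.5 and 77.9 CPM in Ncs1-/- hippocampus and 212, 206, 203, 180.0 and 223 CPM in Ncs1-/- cortex. In Ncs1+/+ mice its levels were 101, 73.3, 71.2, 63.3 and 70.9 CPM in hippocampus and 212, 233, 233, 210.2 and 191 CPM in cortex. Every hippocampus library was lower by a wide margin, with Ncs1+/+ replicate 1 again the highest of them. The log2 fold change was -1.51 (SE 0.076, edgeR adjusted p = 4.41e-09) in Ncs1-/- mice and -1.52 (SE 0.11, adjusted p = 2.1e-07) in Ncs1+/+ mice, or -1.65 without that library. Snap25, its partner on that membrane, was lower too. It averaged 2511 ± 181 CPM in Ncs1-/- hippocampus and 3352 ± 102 CPM in Ncs1-/- cortex (SD, n = 5 each), log2 -0.42, and -0.47 in Ncs1+/+ mice. Vamp1, the vesicle SNARE of hindbrain and motor synapses, gave -0.35 and -0.34. Vamp2, the vesicle SNARE of forebrain, gave 0.0081 (SE 0.042) in Ncs1-/- mice and 0.0004 (SE 0.044) in Ncs1+/+ mice.

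For SNARE disassembly, Nsf, the ATPase, was higher in hippocampus and its adaptors were not. Nsf had 1159, 1109, 1216, 1125 and 1178 CPM in Ncs1-/- hippocampus and 842, 889, 859, 857 and 913 CPM in Ncs1-/- cortex. In Ncs1+/+ mice it had 1144, 1172, 1226, 1207 and 1180.1 CPM in hippocampus and 898, 895, 948, 857 and 902 CPM in cortex. The regions were cleanly separated by a modest amount, log2 0.40 (SE 0.038, edgeR adjusted p = 1.8e-06) and 0.38 (SE 0.037, adjusted p = 3.39e-06). Napa (alpha-SNAP) gave -0.021 in Ncs1-/- mice and -0.060 in Ncs1+/+ mice and was not called. Napb (beta-SNAP, the brain form) gave -0.088 (SE 0.051, adjusted p = 0.196) in Ncs1-/- mice and -0.13 (SE 0.042, adjusted p = 0.0285) in Ncs1+/+ mice. That last call was lost without cortex replicate 1, 3 or 5 or hippocampus replicate 1 or 2, at adjusted p-values of 0.0526 to 0.0881.

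Each complexin had its own pattern. Cplx3, a lipid-anchored form known from retina and deep cortical layers, was scarce and had 5.06, 6.995, 3.42, 4.23 and 6.73 CPM in Ncs1-/- hippocampus and 14.2, 15.9, 16.7, 17.3 and 16.7 CPM in Ncs1-/- cortex. Ncs1+/+ libraries held 7.26, 6.10, 2.48, 3.17 and 5.17 CPM in hippocampus and 22.5, 12.1, 21.3, 14.5 and 16.1 CPM in cortex. Hippocampus was lower in every library, at -1.61 (SE 0.16, edgeR adjusted p = 3.87e-06) and -1.86 (SE 0.26, adjusted p = 7.74e-05). Cplx1 was slightly lower, -0.28 in Ncs1-/- mice and -0.25 in Ncs1+/+ mice. Cplx2, the most abundant complexin, was higher. It had 2646, 2144, 2247, 2161 and 2042 CPM in Ncs1-/- hippocampus and 1945, 1799, 1866, 1913 and 1976 CPM in Ncs1-/- cortex, log2 0.24 (SE 0.061, edgeR adjusted p = 0.00706). In Ncs1+/+ mice the log2 fold change was 0.23 (SE 0.051, adjusted p = 0.00328). The regions did not overlap in either genotype.

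Vesicle membrane proteins differed little, apart from Sv2c. Sv2c, the Sv2 form known for its abundance in the basal ganglia, had 8.78, 13.3, 15.5, 16.8 and 9.28 CPM in Ncs1-/- hippocampus and 41.1, 33.0, 36.5, 46.6 and 33.7 CPM in Ncs1-/- cortex. Its Ncs1+/+ levels were 9.83, 11.999, 11.98, 11.9 and 11.5 CPM in hippocampus and 23.0, 37.4, 23.7, 34.3 and 41.7 CPM in cortex. Both sets of hippocampus values lay below cortex, at -1.60 (SE 0.17, edgeR adjusted p = 7.03e-06) and -1.50 (SE 0.16, adjusted p = 6.41e-06). The striatal marker Adora2a moved with it, at 1.24 ± 0.206 CPM in Ncs1-/- hippocampus and 38.9 ± 11.5 CPM in Ncs1-/- cortex (SD, n = 5 each), and at 1.46 ± 0.247 CPM in Ncs1+/+ hippocampus and 33.5 ± 5.27 CPM in Ncs1+/+ cortex. The part of striatal RNA in the Sv2c difference was not tested.

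Sv2a, the target of the drug levetiracetam, was at -0.11 in Ncs1-/- mice (edgeR adjusted p = 0.0485) and -0.16 in Ncs1+/+ mice (adjusted p = 0.0104). The Ncs1-/- call of Sv2a was lost in 9 of the 10 fits that left out 1 library, all but the one without hippocampus replicate 3, at adjusted p-values of 0.0568 to 0.127. Sv2b was at -0.11 (SE 0.046, adjusted p = 0.0863) in Ncs1-/- mice and -0.18 (SE 0.060, adjusted p = 0.031) in Ncs1+/+ mice. It gained the call in Ncs1-/- mice without hippocampus replicate 5 (adjusted p = 0.0487) and lost it in Ncs1+/+ mice without cortex replicate 3 or 5 or hippocampus replicate 2 or 3 (0.0704 to 0.0777). Syp, the abundant vesicle protein synaptophysin, was higher, with 1607, 1279.5, 1257, 1286 and 1329 CPM in Ncs1-/- hippocampus and 1183, 1149, 1152, 1136 and 1202 CPM in Ncs1-/- cortex. In Ncs1+/+ mice Syp had 1510.2, 1393, 1506, 1349 and 1375 CPM in hippocampus and 1300.3, 1324, 1361, 1249 and 1174 CPM in cortex, where the regions overlapped. Its log2 fold changes were 0.21 (SE 0.060, edgeR adjusted p = 0.0144) and 0.14 (SE 0.049, adjusted p = 0.0395). The Ncs1+/+ call was lost without cortex replicate 2, 4 or 5 or hippocampus replicate 1 or 3, at adjusted p-values of 0.0519 to 0.0919. Syngr1 was lower by 0.21 and 0.26 on the log2 scale in Ncs1-/- and Ncs1+/+ mice. Its relative Syngr3 gave 0.16 and 0.15 and was called in neither. Syngr3 passed in Ncs1-/- mice without cortex replicate 1 (0.21, adjusted p = 0.0130) and in Ncs1+/+ mice without cortex replicate 1 (adjusted p = 0.0131) or hippocampus replicate 4 (adjusted p = 0.0425).

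Synapsins split by gene. Syn2 had 869.8, 750.1, 754, 758 and 819 CPM in Ncs1-/- hippocampus and 525, 511, 524, 532 and 530.4 CPM in Ncs1-/- cortex. Its Ncs1+/+ levels were 827, 759, 803, 813 and 810.5 CPM in hippocampus and 594, 513, 534, 516 and 551 CPM in cortex. Hippocampus was higher in every library, at 0.59 (SE 0.046, edgeR adjusted p = 3.05e-07) and 0.55 (SE 0.046, adjusted p = 7.71e-07). Syn1 was lower by 0.15 in Ncs1-/- mice and 0.25 in Ncs1+/+ mice on the log2 scale. Syn3, the least abundant synapsin, averaged 33.7 ± 8.36 CPM in Ncs1-/- hippocampus and 58.7 ± 5.56 CPM in Ncs1-/- cortex (SD, n = 5 each), log2 -0.81, and gave -0.89 in Ncs1+/+ mice. Each synapsin gene holds a Timp gene on the opposite strand (Timp1 in Syn1, Timp4 in Syn2, Timp3 in Syn3), and without the strand setting their reads cannot be told apart where they overlap.

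Rab3 genes, GTPases that carry vesicles to Rim, differed by small amounts and not in the same direction. Rab3c was higher, with 828, 792, 879.7, 816 and 918 CPM in Ncs1-/- hippocampus and 713, 719.8, 732, 752 and 724 CPM in Ncs1-/- cortex, log2 0.21 (SE 0.044, edgeR adjusted p = 0.00169). In Ncs1+/+ mice it gave 0.26 (SE 0.056, adjusted p = 0.00261), and the regions did not overlap in either genotype. Rab3b gave -0.28 (SE 0.055, adjusted p = 0.00129) in Ncs1-/- mice and -0.17 (SE 0.091, adjusted p = 0.158) in Ncs1+/+ mice. Without hippocampus WT replicate 1 the Ncs1+/+ value passed, at -0.24 (adjusted p = 0.0314). Rab3a, the main brain form, gave 0.037 (SE 0.069) in Ncs1-/- mice and 0.013 (SE 0.057) in Ncs1+/+ mice. It overlaps Mpv17l2 on the opposite strand, and Sv2b and Syt12 each overlap a gene there too.

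Levels of different genes were compared as CPM per kb of exonic length. On that scale Snap25 was highest in cortex, at 494 in Ncs1-/- and 526 CPM per kb in Ncs1+/+ mice, and Cplx2 was highest in hippocampus, at 456 and 473 CPM per kb. Each of the pair was second in the other region. Vamp2, Syt1, Cplx1 and Syp came next in every group, between 223 and 332 CPM per kb. Unc13b was lowest in cortex, at 2.15 and 2.03 CPM per kb, and Sv2c was lowest in hippocampus, at 1.31 and 1.18 CPM per kb. Union exonic length overstates the length of genes with many isoforms, such as Unc13b, and so understates their level.

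Within families the make-up differed by region. Doc2b formed 87.3 ± 0.897% of the Doc2 pair in Ncs1-/- hippocampus and 46.8 ± 4.76% in Ncs1-/- cortex (SD, n = 5 each), and 86.2 ± 5.28% in Ncs1+/+ hippocampus against 46.4 ± 6.57% in Ncs1+/+ cortex. The pair was thus nearly even in cortex and mostly Doc2b in hippocampus. Syn2 formed 40.1 ± 0.678% of the synapsins in Ncs1-/- hippocampus and 28.6 ± 0.622% in Ncs1-/- cortex, and 40.0 ± 0.484% against 27.5 ± 1.74% in Ncs1+/+ mice. Rims3 formed 13.2 ± 1.42% of the Rims in Ncs1-/- hippocampus and 28.3 ± 0.787% in Ncs1-/- cortex, and 13.8 ± 3.96% against 28.3 ± 1.52% in Ncs1+/+ mice. Unc13c formed 10.4 ± 3.86% of the Munc13 genes in Ncs1-/- hippocampus and 22.3 ± 2.30% in Ncs1-/- cortex, and 9.49 ± 2.86% against 19.3 ± 4.06% in Ncs1+/+ mice. Cplx2 formed 66.4 ± 1.34% of the complexins in Ncs1-/- hippocampus and 57.8 ± 1.37% in Ncs1-/- cortex, and 65.7 ± 2.67% against 57.7 ± 1.27% in Ncs1+/+ mice. Vamp2 formed 96.7 ± 0.118% of the Vamp1 and Vamp2 pair in Ncs1-/- hippocampus and 95.9 ± 0.282% in Ncs1-/- cortex, and Sv2a and Sv2b each stood near an even share. The exonic length used for Vamp1, 10.167 kb, exceeds its span in the deposited tables (125215581 to 125222307). The Vamp2 share of this pair may therefore be too high. Before division by length, Vamp1 averaged 108 CPM and Vamp2 1192 CPM in Ncs1-/- hippocampus. Syt1 and Syt11 were the leading pair of the 7 synaptotagmins in each group, Syt1 at 38.2 ± 1.995% in Ncs1-/- hippocampus and 40.6 ± 1.04% in Ncs1-/- cortex, and Syt11 at 33.4 ± 2.54% and 28.2 ± 0.830% of the CPM per kb.

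**Figure D3:**
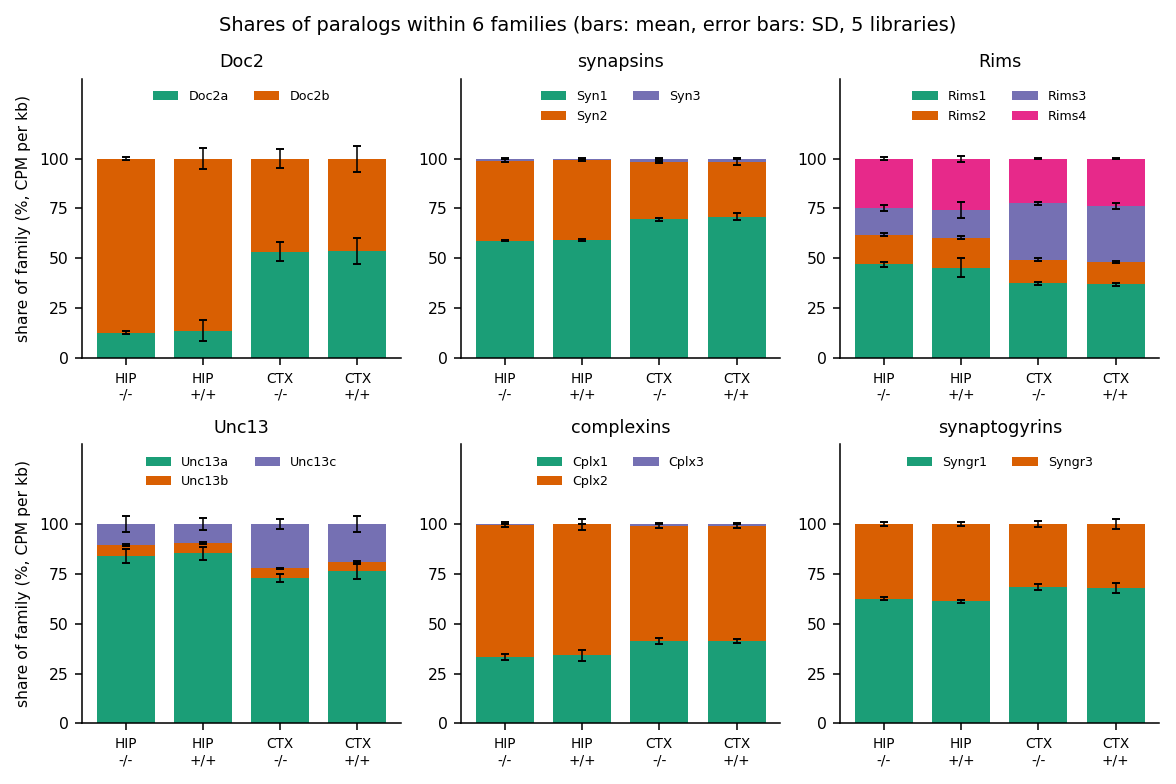
Share of each paralog in its family (y axis, % of CPM per kb) in 6 families, as stacked bars of the group mean with SD (n = 5), hippocampus (HIP) left of frontal cortex (CTX) and Ncs1-/- left of Ncs1+/+. Doc2b makes up most of the Doc2 pair in hippocampus, 87.3 ± 0.897% in Ncs1-/- mice, and about as much as Doc2a in cortex, and the bars of the 2 genotypes are alike within each region.

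The study's own question, what loss of Ncs1 changes, gave no called gene in this set. In hippocampus 0 of 41 genes were called between Ncs1-/- and Ncs1+/+ by edgeR, where 4 of 15042 tested genes (0.0266%) were. An unadjusted edgeR p under 0.05 was found for 1 of the 41, against 3.78% of all tested genes. DESeq2 called 0 of the 41 there as well. In cortex 0 of 41 were called by edgeR, where 4 of 14823 (0.027%) were. There 10 of the 41 had an unadjusted edgeR p under 0.05, against 14.8% of all tested genes, a difference that was not tested. The median log2 fold change, Ncs1-/- over Ncs1+/+, was -0.029 in hippocampus and -0.050 in cortex, with 29 and 30 of the 41 genes below 0. All tested genes had medians of 0.0070 and 0.0019, with 46.9% and 49.4% of them below 0. The 41 values ran from -0.15 to 0.25 in hippocampus and from -0.20 to 0.27 in cortex. A p above the threshold does not show that the genotypes were equal.

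In cortex the smallest p belonged to Rims4, and its groups did not overlap. Rims4 had 139.7, 136, 134, 129 and 139.5 CPM in Ncs1-/- cortex and 152, 148, 161, 155 and 152 CPM in Ncs1+/+ cortex. Its log2 fold change was -0.18 (SE 0.036, edgeR adjusted p = 0.163). Syn1 followed, with 593, 602, 598, 582 and 626 CPM in Ncs1-/- cortex and 627, 659, 701, 637 and 653 CPM in Ncs1+/+ cortex. Its groups were just apart, and its log2 fold change was -0.13 (SE 0.037, adjusted p = 0.231). Syp had 1183, 1149, 1152, 1136 and 1202 CPM in Ncs1-/- cortex and 1300.3, 1324, 1361, 1249 and 1174 CPM in Ncs1+/+ cortex, a log2 fold change of -0.14 (SE 0.041, adjusted p = 0.235) with overlap. Syt12 averaged 36.2 ± 2.999 CPM in Ncs1-/- and 41.5 ± 2.32 CPM in Ncs1+/+ cortex (SD, n = 5 each), log2 -0.20 (SE 0.061, edgeR adjusted p = 0.235). Pclo leaned the other way, with 537, 677, 660.3, 638 and 614 CPM in Ncs1-/- cortex and 418, 533, 549, 441 and 659 CPM in Ncs1+/+ cortex, overlapping ranges and a log2 fold change of 0.27 (SE 0.10, adjusted p = 0.278). Syngr1, at -0.083 (SE 0.036), was the other gene whose groups did not overlap in cortex, which makes 3 of 41 where 2.17% of all tested genes did not overlap. Some other choices gave calls. DESeq2 called Rims4, Syn1 and Syp lower (adjusted p = 0.00261, 0.0410 and 0.0494) among 162 genes. Without cortex WT replicate 5, edgeR called 4 of the 41, Rims4 and Syp lower (-0.18 and -0.17) and Bsn and Pclo higher (0.18 and 0.37), among 563 genes.

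In hippocampus the smallest p belonged to Unc13b. Unc13b had 43.9, 41.7, 42.9, 43.3 and 43.0 CPM in Ncs1-/- hippocampus and 36.9, 37.7, 35.2, 38.2 and 41.4 CPM in Ncs1+/+ hippocampus. The ranges were just apart, as they were for 0.446% of all tested genes, with a log2 fold change of 0.19 (SE 0.050, edgeR adjusted p = 0.991). Pclo had 428, 439.5, 597, 538 and 525 CPM in Ncs1-/- hippocampus and 328, 393, 400.4, 516 and 497 CPM in Ncs1+/+ hippocampus, which overlap, with a log2 fold change of 0.25 (SE 0.13). Syngr3 at -0.11 (SE 0.060), Cplx1 at -0.095 (SE 0.059) and Vamp2 at -0.075 (SE 0.049) came next, and these 5 genes had the same edgeR adjusted p of 0.991. Rims4 and Syn1 were at -0.13 (SE 0.085) and -0.025 (SE 0.045) there.

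**Figure D4:**
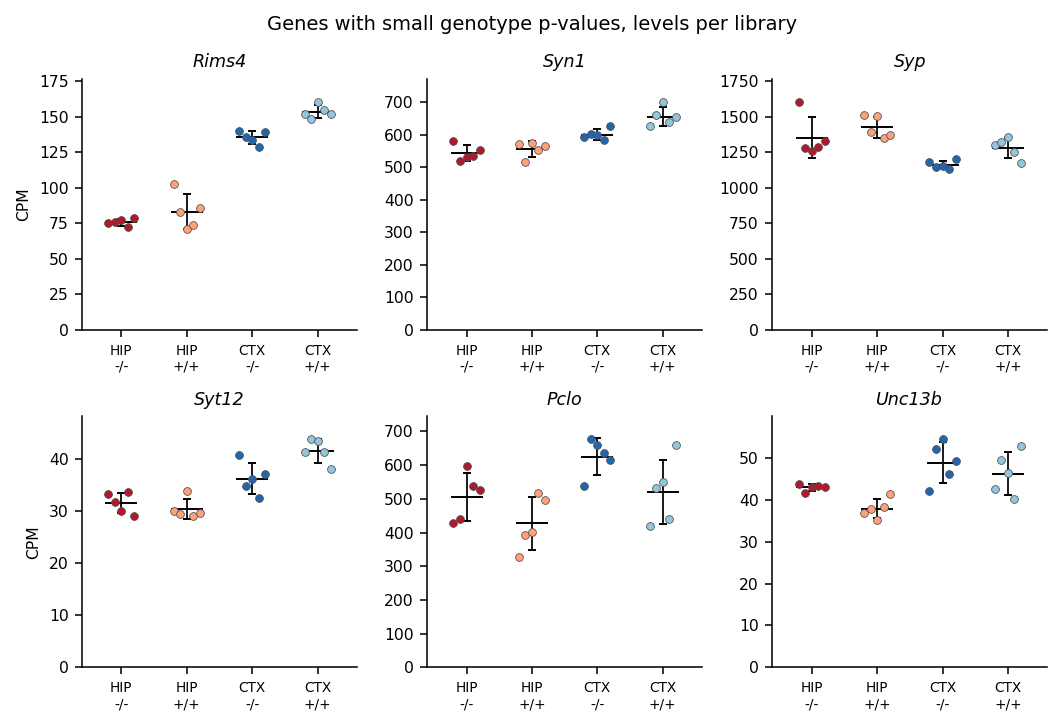
CPM (y axis from 0) of 6 genes with small genotype p-values, per library; dashes are group means and bars SD (n = 5), hippocampus (HIP) left of frontal cortex (CTX) and Ncs1-/- left of Ncs1+/+. Ncs1-/- and Ncs1+/+ cortex are apart for Rims4 and Syn1 and overlap for Syp, Syt12 and Pclo; Ncs1-/- and Ncs1+/+ hippocampus are apart for Unc13b.

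Genotype differences of these genes went with their length. Across the 41 genes the log2 fold change, Ncs1-/- over Ncs1+/+, had a Pearson r of 0.61 with log2 exonic length in hippocampus and 0.55 in cortex, against 0.19 over 14772 genes and 0.22 over 14558 genes. The points share libraries and genes are not independent replicates, so no p is given. The 19 genes of at least 7 kb had a median of 0.0082 in hippocampus and -0.012 in cortex, and the 22 shorter genes of -0.041 and -0.081. Unc13b, Pclo and Bsn, the longest, were above 0 in both regions, at 0.19, 0.25 and 0.16 in hippocampus and 0.079, 0.27 and 0.12 in cortex. With the trend of counts with length removed in each library, r over the 41 genes was 0.23 in hippocampus and 0.061 in cortex, and the median log2 fold change was -0.031 and -0.063. The region differences did not show this relation (r of -0.054 in Ncs1-/- and -0.056 in Ncs1+/+ mice over the 41 genes).

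**Figure D5:**
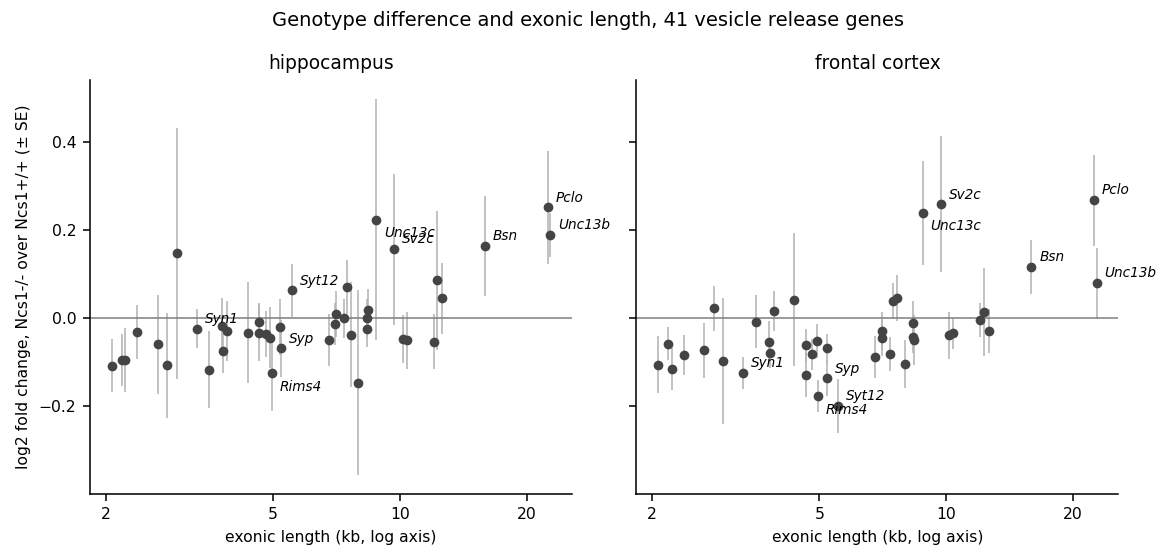
Log2 fold change of Ncs1-/- over Ncs1+/+ (y axis, bars ± SE) against exonic length in kb (log x axis) for the 41 genes, hippocampus left and frontal cortex right. The longest genes, Pclo, Bsn and Unc13b, lie above 0 in both panels, and most genes under 7 kb lie below 0.

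Whether the genotype difference itself differed between regions was tested as an interaction over all 20 libraries, (Ncs1-/- minus Ncs1+/+ in hippocampus) minus (the same in cortex). None of the 41 genes was called, and of 15310 tested genes edgeR called 0 (0%), with 214 at an unadjusted p under 0.05, and DESeq2 called 1. Syt12 had the smallest p of the 41, at 0.25 (SE 0.087, edgeR adjusted p = 0.9998). Syn1 followed at 0.094 (SE 0.057) and Rims1 at 0.074 (SE 0.058), with the same adjusted p.

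Other genes of the vesicle cycle were taken from 5 lists of 123 genes, of which 120 were tested between regions. In Ncs1-/- mice 27 of the 120 were called higher and 30 lower in hippocampus, 47.5% in all, and in Ncs1+/+ mice 31 were higher and 36 lower, 55.8%, where 38.8% and 39.5% of all tested genes were called. In both genotypes 51 were called in the same direction, 22 higher and 29 lower. The median log2 fold change was 0.012 in each genotype, so these genes, unlike the 41, lay about evenly on both sides; the difference between the sets was not tested. By list, in Ncs1-/- and then Ncs1+/+ mice, the counts of higher and lower were 3 and 6, then 8 and 8, of 30 SNAREs and SNARE regulators. That is 30% and 53.3% called, the first below the share of all genes. They were 2 and 7, then 3 and 7, of 18 other synaptotagmins and C2 proteins, and 9 and 6, then 9 and 8, of 24 other active zone genes. Of 20 other vesicle proteins and transporters they were 3 and 6, then 4 and 6, and of 28 endocytosis genes 10 and 5, then 7 and 7. Between genotypes, 0 were called in either region, and 0 in the interaction.

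The lower genes with the largest differences were C2 proteins and a transporter. Otof, otoferlin of inner hair cell release, averaged 6.28 ± 0.675 CPM in Ncs1-/- hippocampus and 33.7 ± 2.97 CPM in Ncs1-/- cortex (SD, n = 5 each), log2 -2.43, and -2.19 in Ncs1+/+ mice. Syt6 averaged 9.77 ± 0.855 CPM in Ncs1-/- hippocampus and 44.8 ± 5.34 CPM in Ncs1-/- cortex, log2 -2.20, and -2.17 in Ncs1+/+ mice. Sytl2, a Rab27 effector, gave -1.46 and -1.51. Slc18a3, the vesicular acetylcholine transporter, averaged 0.0368 ± 0.0391 CPM in Ncs1-/- hippocampus and 2.26 ± 0.701 CPM in Ncs1-/- cortex, too few counts for a fold. The higher genes were Syt17 at 0.70 and 0.77 in Ncs1-/- and Ncs1+/+ mice, the active zone liprins Ppfia2 at 0.74 and 0.74 and Ppfia4 at 0.73 and 0.74, and the vesicle GTPase gene Rab27a at 0.68 and 0.88.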

How the data were processed

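Expected counts per gene, 1 deposited table per region, were used as the authors deposited them. STAR 2.7.3a, Partek and mm10 are named in the submitters' processing notes. Which annotation was counted, whether by strand, and what was filtered are not stated in the labels or notes. The unit was read from the values: 22.6% to 27.3% of the values in a library differed from the nearest whole number by over 0.001. Groups and replicate numbers came from the sample titles.

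Rounded counts were modelled with edgeR 4.0.16 (R 4.3.3) with filterByExpr, TMM scaling and quasi-likelihood tests, Benjamini-Hochberg adjusted over all tested genes at 0.05. Genotypes were compared within regions, regions within genotypes over the 17148 genes of both tables, and their interaction over 20 libraries. Standard errors are the absolute log2 fold change over the root of F. Exonic length is the union of exons in GENCODE vM21, found for 41 of 41 genes. Gene coordinates, strands and overlaps are from the positions in the deposited tables (mm10 by the processing notes). Depth was 16609603 to 34612610 counts per library. No libraries of a group agreed within sampling noise (lowest chi-square per degree of freedom 3.45). The method was tested on simulated counts.

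Alternatives were other scaling, DESeq2 1.42.0, no filter, a replicate block, leaving out each library in turn, 3 hippocampus libraries with the most Ttr left out, the length trend removed and, added after the data were seen, Rn45s removed and the length trend removed in region comparisons. A comparison left out those of the 3 Ttr-rich libraries that it held. The 41 genes and all lists were chosen with earlier results of these data known. Full values are given for up to 8 genes per direction called in both genotypes, genes whose call differed between genotypes, and the 5 genes with the smallest genotype p per region (3 for the interaction).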

Additional observations from a re-analysis of the deposited data

Results flagged for a closer look

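The 41 genes in 4 groups gave 164 sets of 5 values. In 14 of these sets (8.54%) the highest or lowest library lay far from the other 4. Its gap to the nearest value was over 0.71 of the range (Dixon's ratio). About 1 in 20 sets of independent values would pass, but genes of 1 library are not independent, so no excess is read from this share. Hippocampus WT replicate 1 had 5 of these: Rims3 at 123 CPM against 52.3 to 68.5 CPM in the other 4, Stx1a at 101 CPM against 63.3 to 73.3 CPM, Syt4 at 335 CPM against 257 to 269.7 CPM, Doc2b low at 112 CPM against 172 to 177 CPM, and Sv2c low at 9.83 CPM against 11.53 to 11.999 CPM. Rims3, Stx1a, Syt4 and Doc2b were displaced towards the cortex levels and Sv2c away from them. The dentate gene Dsp was at 25.4 CPM in this library against 49.9 to 85.8 CPM in the other 4. The part of this in the vesicle gene values was not tested.

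Hippocampus KO replicate 1 was high for 5 genes: Syp at 1610 CPM against 1257 to 1329 CPM in the other 4, Vamp2 at 1320 CPM against 1143 to 1184 CPM, Syt11 at 1300 CPM against 1009 to 1086 CPM, Rab3a at 495 CPM against 375 to 401 CPM, and Syngr3 at 155 CPM against 127 to 132 CPM. Hippocampus WT replicate 3 was high for Syt12 (33.8 CPM against 29.0 to 30.0 CPM) and Napa (185 CPM against 151 to 158 CPM). Cortex WT replicate 3 was high for Syngr1 (677 CPM against 619.9 to 632 CPM) and cortex KO replicate 1 for Syngr3 (135 CPM against 114 to 118 CPM).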

How the results depend on the processing

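The counts of called genes among the 41 moved past 1.5-fold in 1 comparison. For genotype in cortex, DESeq2 called 3 where edgeR called 0, and leaving out 1 library in turn gave 0 to 4, the 4 coming without cortex WT replicate 5. DESeq2 there called 162 of all genes and the fit without that library 563, against 4. For genotype in hippocampus the count was 0 under every alternative run, and 0 of all genes were called without the 3 libraries with the most Ttr. For regions, leaving out 1 library gave 29 to 32 calls in Ncs1-/- mice and 30 to 35 in Ncs1+/+ mice, and the other alternatives 28 to 33 and 30 to 35. The 28 came without the Ttr-rich hippocampus KO replicates 2 and 4, where 4722 of all genes were called in place of 5838. No called member changed sign under any alternative run.

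The labels do not say whether a replicate number marks the same mouse in both regions, so samples were not treated as pairs. At least 1 same-numbered pair in every set had a correlation of deviations under 0.1 (lowest -0.14), which cannot settle the question. In Ncs1+/+ mice every hippocampus library correlated best with the cortex library of its own number. In Ncs1-/- mice replicates 1, 3 and 4 did so, and replicates 2 and 5 did not. Between Ncs1-/- and Ncs1+/+ hippocampus, which cannot come from the same mouse, replicates 1 and 4 also matched their own number best (r of 0.30 and 0.24). No Ncs1-/- cortex library matched the Ncs1+/+ cortex library of its number best. The region matches are thus a weak hint of pairing from the data and not the design. With the replicate block, calls were 0 for genotype in each region and for the interaction, 33 (7 higher, 26 lower) for regions in Ncs1-/- mice and 35 (7 higher, 28 lower) in Ncs1+/+ mice.

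Precision was low for Cplx3, Sv2c and Unc13c, which had few counts or widely spread libraries. Their standard errors were 0.16 to 0.26 on the log2 scale between regions, against 0.037 for the most precise gene. Those of Rims3 and Doc2b fell in the same span in Ncs1+/+ mice, where hippocampus replicate 1 stood apart, and below it in Ncs1-/- mice.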
